A study of Oncorhynchus mykiss with 9 samples.

Results

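Known miRNAs with high catalogue numbers were examined in small-RNA libraries from the liver of rainbow trout (Oncorhynchus mykiss). Every fish was wild-type, and the groups were control, moderate hypoxia for 12 h and acute hypoxia for 12 h, with 3 libraries each. The sources used here give neither the oxygen levels nor the age of the fish, nor whether a library came from 1 fish or a pool, so p-values measure the spread between libraries only. Members were the entries named miR-1000 or above that were at least 20 nt long and averaged at least 1 TPM, the deposited level scaled to the reads of the library, over the 9 libraries. The entry miR-1582 was left out, and each distinct sequence was counted once. This gave 27 sequences under 29 names, out of 1413 entries in all, 540 of them with the name of a known miRNA and 117 with a number of 1000 or above. The members were thus chosen by their mean level, which is described here without a test. Just inside the level were miR-1306-x at 1.12 TPM and miR-6134-z at 1.38 TPM, and just outside were miR-9933-z at 0.898 TPM and miR-5108-z at 0.704 TPM.

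MicroRNAs are short RNAs cut from a hairpin precursor, which can yield a mature strand from each of its arms. They direct the silencing complex to messenger RNAs mainly through the seed, the stretch of bases 2 to 8. Names are numbered in the order of registration, so the long-studied families have low numbers. High numbers hold lineage-specific miRNAs, variants of known families, and fragments of other RNAs such as transfer RNA that were registered as miRNAs. The letters x, y and z at the end of a name are printed as deposited, without a stated meaning.

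The sequences sort the members into kinds. The first set is the x and y entries of 5 names that gave the values described below, with the seed in capitals, read from the deposited table.
miR-2188-x: aAGGTCCAacctcacatgtcct
miR-2188-y: gCTGTGTGaggtcggacctatc
miR-1388-x: tGGACTGTccaacctgagaatg
miR-1388-y: aTCTCAGGttcgtcagcccatg
miR-7132-x: gACTTGGTctaagctcctcagc
miR-7132-y: tGAGGCGTttagaacaagttca
miR-8163-x: tTTCTGACcatgtgaccttggga
miR-8163-y: tCAGGTCAcatgttcaggata
miR-3618-x: gATTTCCAataattgagacagt
miR-3618-y: tACATTAAtgaaaagaacaatg
In a computed duplex (RNAduplex), the x and y sequences of miR-2188 formed 15 base pairs at -26.6 kcal/mol, those of miR-7132 formed 18 at -22.9 kcal/mol, those of miR-8163 formed 16 at -24.1 kcal/mol and those of miR-1388 formed 16 at -22.3 kcal/mol. The x and y sequences of miR-10545 formed 14 at -23.1 kcal/mol and those of miR-10544 formed 13 at -18.8 kcal/mol. The miR-3618 sequences paired least, with 8 base pairs at -1.8 kcal/mol.

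The second set shows members beside a lower-numbered or more abundant entry that shares their letters, again with the seed in capitals.
miR-10174-y: aTCACATTgccagggattacc
miR-23-y: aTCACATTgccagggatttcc
miR-3966-z: aAGCTGCCagctgtagaactgt
miR-22-y: aAGCTGCCagctgaagaactgt
miR-8159-x: tCAGTAACtggaatctgtccct
miR-459-x: tCAGTAACaaggattcatcctg
miR-6134-z: tGAGGTAGtaggatgtatagt
let-7-x: tGAGGTAGtagattgaatagtt
Counting from 1 at the 5′ end, with the base of the lower-numbered entry first, miR-10174-y differs from miR-23-y by T19A alone and miR-3966-z differs from miR-22-y by A14T alone. All 21 bases of miR-10174-y are also the first 21 bases of miR-23-z. The sequence of miR-6134-z shares the let-7 seed and differs from let-7-x by A12G, T13A and A16T over 21 bases. The sequence of miR-8159-x shares 14 of 22 positions with the fish miRNA miR-459-x, the seed among them. In all, 5 of the 27 members shared a seed with a lower-numbered known entry, the fifth being miR-10965-z with miR-485-x. The name miR-485 belongs to the imprinted miRNA cluster of placental mammals, which fish lack. Of the 27 members, 20 had a seed found in no known entry of a different sequence.

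The third set ends in the letters CCA, here in capitals, which mature transfer RNAs carry at their 3′ end.
miR-9226-x: aggtccctgttcgggcgCCA
miR-3968-z: cgaatcccacttctgacaCCA
miR-2478-z: atcccacttctgacaCCA
miR-1306-x: acaccccccctgcaaacgtCCA
The 18 nt entry miR-2478-z, shown for comparison, lies whole within miR-3968-z, which has 3 further bases at the 5′ end. In all 3 of the 27 members (11.1%) ended in CCA, against 10 of 15 distinct sequences (66.7%) among entries numbered 1000 and above that were under 20 nt, and 3 of 217 (1.38%) among lower-numbered known sequences of 20 nt or more. These are counts of letters, and origin from transfer RNA was not tested.

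As a group the members were scarce. Their summed level was 1306, 1075 and 1097 TPM in the control libraries, 868, 867 and 810 TPM under moderate hypoxia and 1187, 1029 and 910 TPM under acute hypoxia. Every moderate hypoxia library lay below every other library. The sum was 0.0806 to 0.130% of all TPM in a library. The 2 entries of the hepatocyte miRNA miR-122 alone held 307600, 460400 and 501300 TPM in control libraries 1, 2 and 3. They held 506000 to 526980 TPM under moderate hypoxia. Under acute hypoxia they held 408120 to 462890 TPM. Each moderate hypoxia library thus lay above every other library, though neither entry passed the test against control described below. The part of miR-122 in the lower sums was not tested. Of the 27 members, 3 averaged at least 100 TPM and 9 at least 10 TPM, with a median of 4.67 TPM, against a median of 40.2 TPM over the 217 lower-numbered sequences of 20 nt or more that passed the same level. The members were 20 to 23 nt long, 13 of them 22 nt, and 12 began with T (44.4%, against 51.2% of the lower-numbered sequences). Each member had reads in every library, at least 2 and at most 4888.

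**Figure D1:**
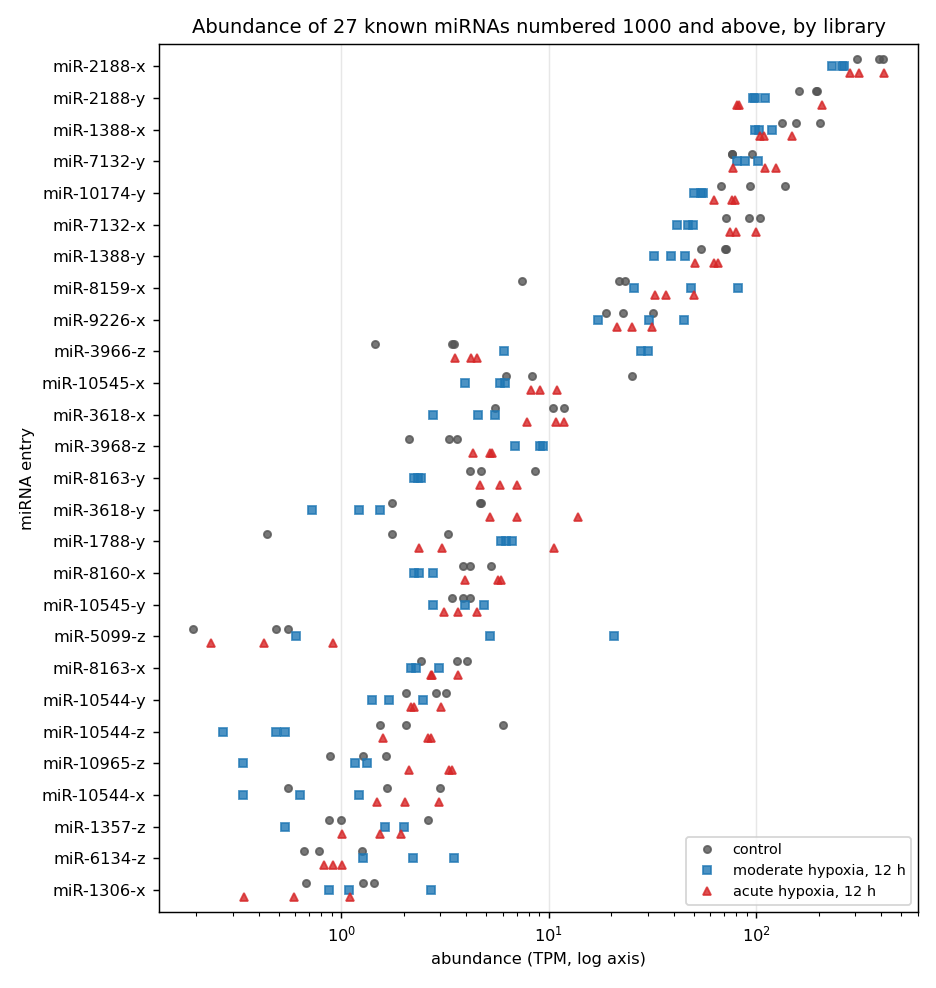
Abundance of the 27 members in TPM (log axis), ordered by mean, with 3 libraries per group (grey circles control, blue squares moderate hypoxia, red triangles acute hypoxia). Levels run from 413 TPM for miR-2188-x in acute hypoxia library 1 to 0.193 TPM for miR-5099-z in control library 1, and the squares of miR-3966-z and miR-5099-z spread far apart.

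Facts of the libraries touch these results. The reads behind a library numbered 8443329 to 16515714, so that 3 reads correspond to 0.182 to 0.355 TPM. Moderate hypoxia libraries 1 and 2 held 246 and 298 TPM under 34 names of the imprinted miRNA cluster of placental mammals, which fish lack, against 3.02 to 5.32 TPM in the other 7 libraries. Of 481 entries tested, 21 exceeded their highest value elsewhere more than 4 times in each of the pair, and 2 of those are members, miR-3966-z and miR-5099-z. Markers of other cells were summed as well. The 6 red blood cell entries (miR-451, miR-144 and miR-486) summed to 679 to 872 TPM over all 3 moderate hypoxia libraries. Their sums were 2017 to 3512 TPM in control and 2156 to 3122 TPM under acute hypoxia. All 6 had reads in each group, and under moderate hypoxia 4 of them fell and 1, miR-486-x, rose against control. The 12 leukocyte entries summed to 10702 to 10965 TPM over the same 3 moderate hypoxia libraries against 14977 to 21396 TPM in control, and 2 of the 8 tested fell. The 2 of endothelium summed to 6719 to 7379 TPM against 11982 to 16161 TPM, and 1 fell. The 11 of stroma, at 84960 to 93953 TPM against 86027 to 122270 TPM, and the 6 of striated muscle, at 51.7 to 55.8 TPM against 51.6 to 77.3 TPM, overlapped with control. Of the 10 stroma entries tested 1 rose and 2 fell, and of the 6 of muscle 1 fell. The part of all these markers in the results below was not tested. In bulk liver, fewer cells of a type and less of a miRNA per cell cannot be told apart.

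Moderate hypoxia was compared with control to ask which of these miRNAs change under a moderate lack of oxygen. Of the 27 members, 5 rose, 5 fell and 17 did not pass (limma on log2(TPM + 1), adjusted by Benjamini and Hochberg over all 481 entries tested, threshold 0.05). The 5 that rose were miR-3966-z, miR-3968-z, miR-8159-x, miR-1788-y and miR-5099-z, and the 5 that fell were miR-7132-x, miR-10544-z, miR-8163-y, miR-1388-y and miR-10174-y. Reaching the level that set the members rested on moderate hypoxia alone for 3 of them, miR-5099-z, miR-6134-z and miR-1306-x, which averaged 0.467, 0.908 and 0.901 TPM over the other 6 libraries. Any rise of these 3 under moderate hypoxia was built into their choice and is given as values only. Without them 4 rose and 5 fell among 24 (37.5%). With them the 10 are 37.0% of the members, against 25.6% of all entries tested in either direction, 7.90% higher and 17.7% lower. Of the 222 lower-numbered known entries of 20 nt or more, 73 passed (32.9%), near the share of the members. Among entries numbered 1000 and above that were under 20 nt, 9 of 16 passed. The median log2 change was -0.37 over the members and -0.22 over all entries. With trimmed mean of M values or median of ratios scaling, 6 members were higher and 1 was lower, and 21.2% of all entries passed under each. These scalings put the median of all entries at -0.0018 and 0.0065. With scaling that leaves out miR-122 (median -0.049) 6 members were higher and 2 lower, and 23.2% of all entries passed. The groups did not overlap for 17 members (63.0%), 6 higher and 11 lower, against 43.2% of all entries (12.5% higher and 30.8% lower). The same held for 110 of the 222 lower-numbered known entries and 12 of the 16 high-numbered entries under 20 nt. The 6 higher members, here and under each other scaling, include miR-5099-z and miR-6134-z, whose rise was built into their choice.

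**Figure D2:**
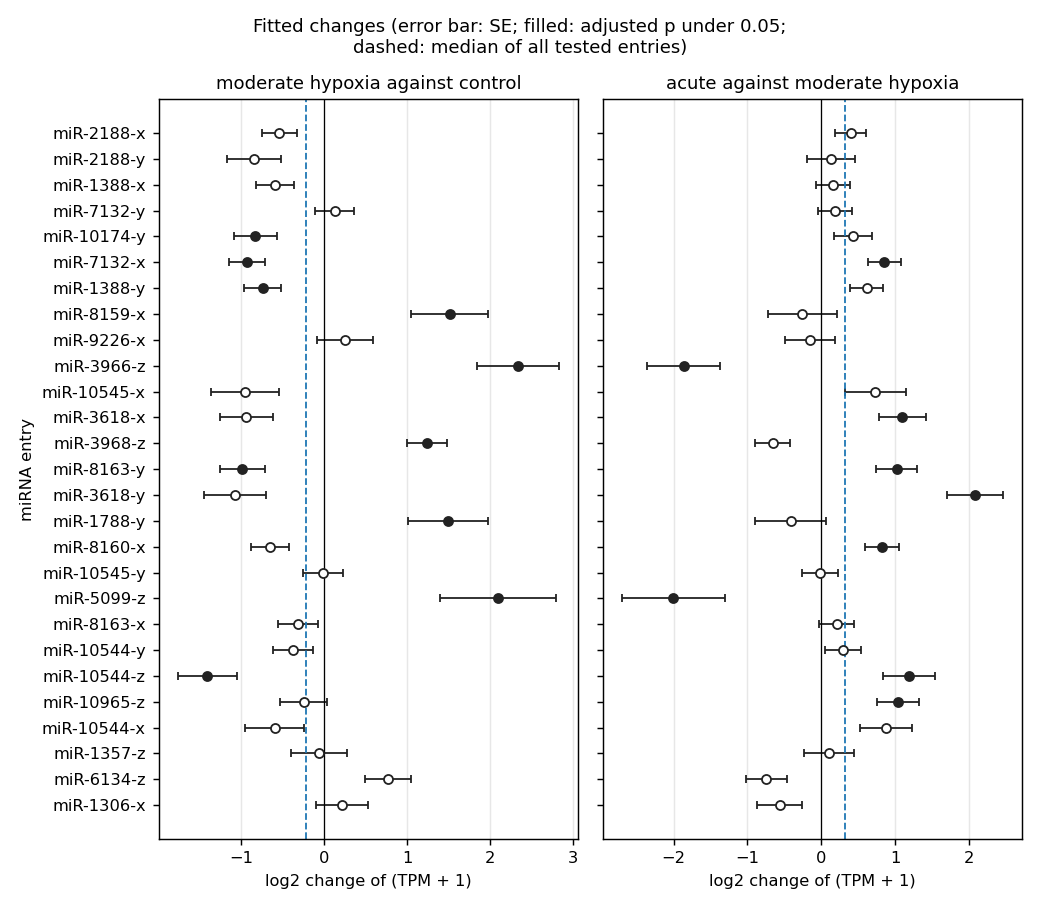
Log2 change of TPM + 1 for each member (point, with its SE), moderate hypoxia against control on the left and acute against moderate hypoxia on the right; filled points passed the test at an adjusted p under 0.05. The dashed line is the median of all 481 entries, -0.22 on the left and 0.32 on the right. On the left 5 filled points lie on each side of 0, and on the right 7 lie above and 2 below. The filled points of both panels include miR-5099-z, which reached the level through moderate hypoxia alone.

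The x and y entries of miR-2188 and miR-1388, found in fish and other vertebrates outside the mammals, were among the most abundant members. The level of miR-2188-x was 409.9, 307 and 392 TPM in control, 265, 232 and 260 TPM under moderate hypoxia and 413, 314 and 283 TPM under acute hypoxia. Its moderate hypoxia libraries lay below all others, and its log2 change against control of -0.54 (SE 0.21, adjusted p = 0.0827) did not pass. The level of miR-2188-y was 195, 161 and 193 TPM in control, 110.1, 96.4 and 98.6 TPM under moderate hypoxia and 207, 80.8 and 83.1 TPM under acute hypoxia. Acute hypoxia library 1 stood with the controls and the other two below every moderate hypoxia library, and the log2 change of moderate hypoxia against control, -0.84 (SE 0.33, adjusted p = 0.0777), did not pass.

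The level of miR-1388-x was 202, 156 and 133 TPM in control, 98.4, 119 and 103 TPM under moderate hypoxia and 148, 104 and 109 TPM under acute hypoxia. The moderate hypoxia libraries lay below the controls, and the log2 value of -0.59 (SE 0.23, adjusted p = 0.0777) did not pass. For miR-1388-y the levels were 71.4, 70.5 and 54.1 TPM in control, 32.1, 45.3 and 39.0 TPM under moderate hypoxia and 62.8, 65.5 and 50.9 TPM under acute hypoxia. It fell under moderate hypoxia by 0.74 on the log2 scale (SE 0.22, adjusted p = 0.0328). That call was lost without control library 1 or 2 or any 1 of the moderate hypoxia libraries (adjusted p 0.0556 to 0.134, log2 change -0.87 to -0.61 over all leave-outs). It was lost under all 3 other scalings (log2 change -0.50 to -0.44). The same 2 sequences are also listed as miR-1338-x and miR-1338-y, at 76.5 to 85.3% and 56.4 to 70.8% of the level under the miR-1388 names, and the file does not say how reads were shared between the names. The entry miR-1338-y fell by 0.92 on the log2 scale (SE 0.24, adjusted p = 0.0202), lost without control 2 or moderate hypoxia 1 (adjusted p 0.0539 to 0.0846) and under 2 of 3 other scalings.

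Of miR-7132, a name given to a fish miRNA, the x entry read 71.5, 104 and 91.9 TPM in control, 49.7, 41.5 and 46.7 TPM under moderate hypoxia and 79.6, 99.6 and 74.6 TPM under acute hypoxia. Its moderate hypoxia libraries lay below all 6 others, and it fell by 0.93 on the log2 scale (SE 0.22, adjusted p = 0.0142). The call did not hold when moderate hypoxia library 2 was left out (adjusted p = 0.0566) and under all 3 other scalings (log2 change -0.69 to -0.63). The y entry read 76.6, 95.6 and 76.2 TPM in control, 103, 88.5 and 80.5 TPM under moderate hypoxia and 77.7, 124 and 111 TPM under acute hypoxia. Its groups overlapped, and its log2 value of 0.13 (adjusted p = 0.745) did not pass. The ratio of the x to the y entry needs no scaling between libraries. It was 0.933, 1.09 and 1.21 in control, 0.485, 0.469 and 0.580 in moderate hypoxia and 1.02, 0.800 and 0.672 in acute hypoxia, so that moderate hypoxia lay below both other groups. Against control the ratio differed by -1.07 on the log2 scale (exact two-sided permutation test, p = 0.1, the smallest that 3 against 3 libraries allow, adjusted p = 0.22 over 33 ratio tests).

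Among entries known from Atlantic salmon, miR-8163-y read 8.60, 4.19 and 4.74 TPM in control, 2.34, 2.42 and 2.24 TPM under moderate hypoxia and 4.64, 5.80 and 7.06 TPM under acute hypoxia. Its moderate hypoxia libraries were close together and below all others, and it fell by 0.98 on the log2 scale (SE 0.27, adjusted p = 0.0254). The call was lost without control library 1 or any 1 of the moderate hypoxia libraries (adjusted p 0.0622 to 0.0682) and under 2 of 3 other scalings. Its partner miR-8163-x lay between 2.16 and 4.06 TPM in the 9 libraries and did not pass (log2 value -0.32, adjusted p = 0.365). The ratio of the x to the y entry was 0.472, 0.860 and 0.512 in control, 0.923, 1.22 and 1.03 in moderate hypoxia and 0.582, 0.469 and 0.516 in acute hypoxia. Moderate hypoxia lay above both other groups, by 0.83 on the log2 scale against control (exact permutation p = 0.1, adjusted p = 0.22). Ratios of other names lay apart at the same p and adjusted p. For miR-2188 moderate hypoxia was above control by 0.31 on the log2 scale. Acute hypoxia differed from moderate hypoxia by -0.47 for miR-1388, 0.85 for miR-10545 and 1.27 for miR-10544. Such separation was thus not particular to the ratios described. The level of miR-8160-x was 3.87, 4.19 and 5.29 TPM in control, 2.25, 2.76 and 2.36 TPM under moderate hypoxia and 3.97, 5.68 and 5.92 TPM under acute hypoxia, with a log2 value against control of -0.65 (SE 0.23, adjusted p = 0.0586) that did not pass.

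**Figure D3:**
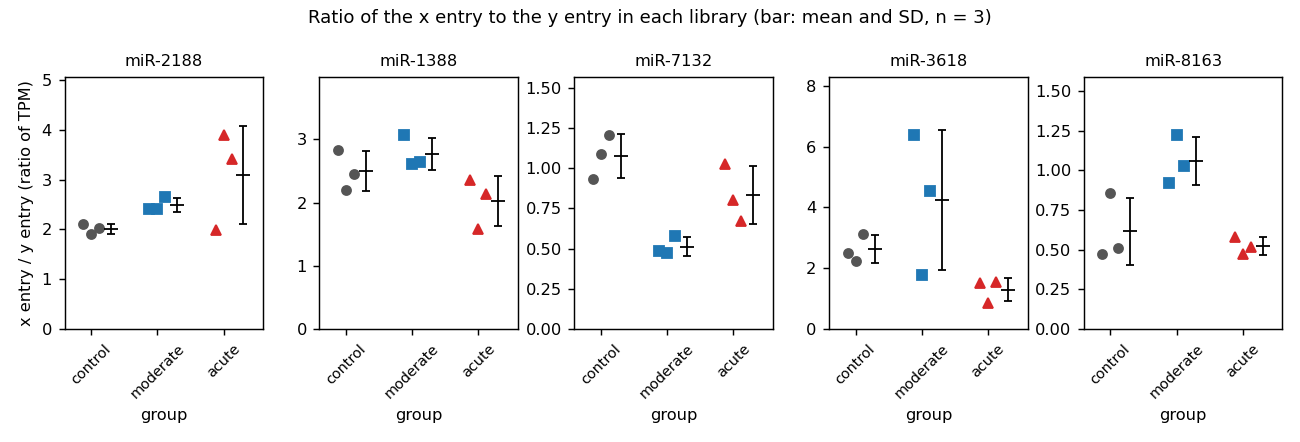
Ratio of the x to the y entry in each library for 5 names (linear axes from 0, points for libraries, bars for the mean and SD of 3). For miR-7132 the moderate hypoxia libraries lie between 0.469 and 0.580 and all others at 0.672 or above; for miR-3618 the acute hypoxia libraries lie at 1.53 or below and all others at 1.78 or above.

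The third member of this naming group, miR-8159-x, rose instead. It read 23.3, 7.40 and 21.9 TPM in control, 25.7, 81.6 and 48.7 TPM under moderate hypoxia and 36.6, 50.1 and 32.7 TPM under acute hypoxia. Every hypoxia library lay above every control, and it rose under moderate hypoxia by 1.52 on the log2 scale (SE 0.47, adjusted p = 0.0356). The call was lost without control 2, moderate hypoxia 2 or 3, or acute hypoxia 1 or 3 (adjusted p 0.0528 to 0.119, log2 change 1.02 to 1.94) and held under all 3 other scalings. Its seed partner miR-459-x read 441, 544 and 357 TPM in control, 94.7, 99.4 and 96.1 TPM under moderate hypoxia and 479, 747 and 653 TPM under acute hypoxia, and fell under moderate hypoxia by 2.18 on the log2 scale (SE 0.23, adjusted p = 0.000320). As a share of miR-459-x, miR-8159-x was 5.28, 1.36 and 6.15% in control, 27.2, 82.1 and 50.7% in moderate hypoxia and 7.64, 6.71 and 5.00% in acute hypoxia. The moderate hypoxia libraries lay above all others (exact permutation p = 0.1 against control, adjusted p = 0.22).

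The pair miR-10174-y and miR-23-y, which differ by 1 base, both fell. The level of miR-10174-y was 137, 93.2 and 67.4 TPM in control, 55.5, 54.0 and 50.0 TPM under moderate hypoxia and 76.2, 78.8 and 62.8 TPM under acute hypoxia. The moderate hypoxia libraries lay below all others, and it fell by 0.83 on the log2 scale (SE 0.26, adjusted p = 0.0382). The call was lost without control 1 or 2, any 1 of the moderate hypoxia libraries or acute hypoxia 3 (adjusted p 0.0541 to 0.102, log2 change -1.08 to -0.57) and under all 3 other scalings (log2 change -0.59 to -0.53). The change of miR-23-y was -0.97 (SE 0.31, adjusted p = 0.0418), or -0.54 without control 1, and its call did not hold without any 1 of the 6 hypoxia libraries (adjusted p 0.0534 to 0.112). As a share of miR-23-y, miR-10174-y was 6.46, 11.2 and 7.16% in control and 9.66, 8.28 and 8.40% under moderate hypoxia, and these groups overlapped (exact permutation p = 0.7). The longer miR-23-z begins with the whole of miR-10174-y. It read 22.6, 26.5 and 22.4 TPM in control and 24.1, 24.6 and 18.8 TPM under moderate hypoxia. Its groups overlapped, and its log2 value of -0.086 (limma, adjusted p = 0.824) did not pass.

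The rise of miR-3966-z rests largely on 2 libraries. It read 1.45, 3.51 and 3.42 TPM in control, 30.0, 27.8 and 6.05 TPM under moderate hypoxia and 3.55, 4.50 and 4.21 TPM under acute hypoxia. Moderate hypoxia libraries 1 and 2 stood far above the third, which was itself above the other 6. It rose by 2.34 on the log2 scale (SE 0.50, adjusted p = 0.00843), in all 9 leave-outs. Without moderate hypoxia 3 the log2 change was 3.03, and with that library alone in its group the log2 value was 0.95. The 1-base relative miR-22-y, an abundant liver miRNA, read 27380, 44465 and 33305 TPM in control and 65234, 61066 and 63671 TPM under moderate hypoxia. The share of miR-3966-z in miR-22-y was 0.00529, 0.00789 and 0.0103% in control, 0.0460, 0.0455 and 0.00951% in moderate hypoxia and 0.00980, 0.00868 and 0.00880% in acute hypoxia. By this measure moderate hypoxia 3 lay within the range of the controls (exact permutation p = 0.2 against control).

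**Figure D4:**
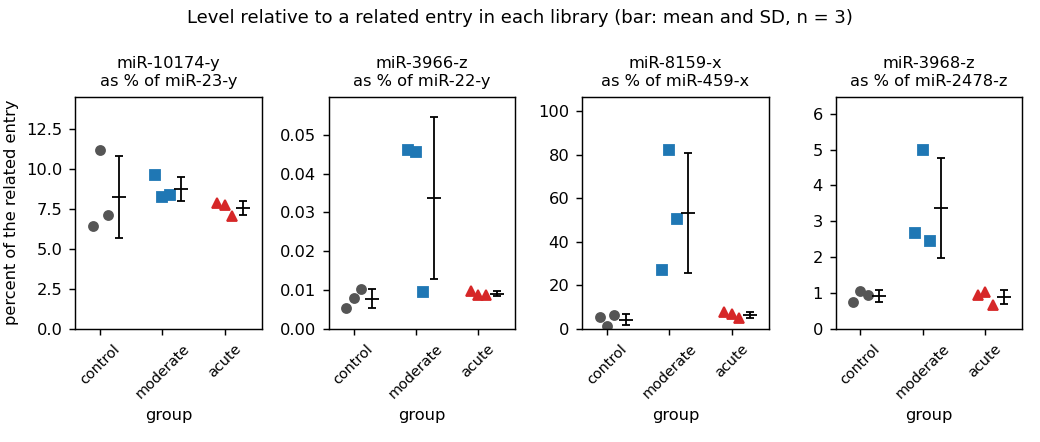
Level of 4 members as a percentage of a related entry in each library (linear axes from 0, points for libraries, bars for the mean and SD of 3). Moderate hypoxia lies above the other groups for miR-8159-x (27.2 to 82.1% of miR-459-x) and miR-3968-z (2.44 to 4.98% of miR-2478-z); for miR-3966-z only libraries 1 and 2 do.

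The entry miR-5099-z, a name given in mouse, showed the same 2 libraries. Its sequence has the seed in capitals.
miR-5099-z: tCTTAGATcgatgtggtgctc
It read 0.193, 0.487 and 0.551 TPM in control, 5.21, 20.7 and 0.606 TPM under moderate hypoxia and 0.422, 0.237 and 0.911 TPM under acute hypoxia. Moderate hypoxia 3 lay within the range of the acute hypoxia libraries. It is counted among the members past the threshold in both comparisons with moderate hypoxia, but libraries 1 and 2 of that group alone brought it to the level, so no test of it is given.

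Of the members that end in CCA, miR-3968-z, also a mouse name, read 2.13, 3.60 and 3.31 TPM in control, 9.35, 9.07 and 6.84 TPM under moderate hypoxia and 4.31, 5.33 and 5.24 TPM under acute hypoxia. The 3 groups did not overlap at all. It rose under moderate hypoxia by 1.24 on the log2 scale (SE 0.24, adjusted p = 0.00546), in all 9 leave-outs and under all 3 other scalings. For miR-3968-z with moderate hypoxia 3 alone in that group, the log2 value was 0.99. The miR-2478-z contained in it read 287, 343 and 348 TPM in control and 348, 182 and 280 TPM under moderate hypoxia, and did not pass (log2 value -0.31, adjusted p = 0.462). As a share of miR-2478-z, miR-3968-z was 0.741, 1.05 and 0.950% in control, 2.68, 4.98 and 2.44% in moderate hypoxia and 0.955, 1.02 and 0.664% in acute hypoxia (exact permutation p = 0.1 for moderate hypoxia against control, adjusted p = 0.22). The level of miR-9226-x was 31.7, 22.9 and 18.8 TPM in control, 44.8, 17.2 and 30.4 TPM under moderate hypoxia and 25.3, 21.3 and 31.4 TPM under acute hypoxia, its groups overlapped, and its log2 value of 0.25 (adjusted p = 0.632) did not pass.

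Of the other entries, miR-1788-y, known in zebrafish, and miR-10544-z passed in opposite directions. Their sequences, with the seed in capitals, share no seed with a lower-numbered entry.
miR-1788-y: cAGGCAGCtaaagcaagtctgt
miR-10544-z: tAGGCGTGtcactgcgtgtcaca
The level of miR-1788-y was 3.29, 1.75 and 0.441 TPM in control, 6.20, 6.65 and 5.87 TPM under moderate hypoxia and 2.36, 10.7 and 3.07 TPM under acute hypoxia. Moderate hypoxia lay above control while acute hypoxia 2 was the highest of all, and it rose under moderate hypoxia by 1.49 on the log2 scale (SE 0.48, adjusted p = 0.0428). The call was lost without control 2 or 3, any 1 of the moderate hypoxia libraries or acute hypoxia 3 (adjusted p 0.0619 to 0.115, log2 change 1.07 to 1.86).

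The level of miR-10544-z was 5.99, 2.05 and 1.54 TPM in control, 0.270, 0.538 and 0.484 TPM under moderate hypoxia and 2.70, 2.61 and 1.59 TPM under acute hypoxia. Its moderate hypoxia libraries lay below all others, with as few as 3 reads, and it fell by 1.41 on the log2 scale (SE 0.35, adjusted p = 0.0196). It passed under all 3 other scalings, and the call was lost without moderate hypoxia 1 (adjusted p = 0.0619). The shorter miR-10544-x, which is the first 21 bases of miR-10544-z, lay between 0.336 and 3.0 TPM in the 9 libraries and did not pass (log2 value -0.59, adjusted p = 0.242).

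Acute hypoxia was then compared with moderate hypoxia, both lasting 12 h. Of the 27 members 7 were higher under acute hypoxia, 2 were lower and 18 did not pass. Without the 3 members that reached the level through moderate hypoxia alone, 7 were higher and 1 was lower among 24. The 9 are 33.3% of the members, against 30.6% of all 481 entries in either direction, 22.9% higher and 7.69% lower, so the share lies near that of all entries. The median log2 change was 0.21 over the members and 0.32 over all entries. With other scalings the higher and lower numbers were 3 and 4 (trimmed mean of M values, median of all entries 0.014), 1 and 4 (median of ratios, 0.0095) and 5 and 4 (without miR-122, 0.14). Under these scalings, in that order, 26.6%, 25.6% and 26.7% of all entries passed in either direction. The groups did not overlap for 15 members (55.6%), 12 higher and 3 lower, against 52.8% of all entries (40.5% higher and 12.3% lower). These 3 lower members include miR-6134-z, and the 4 lower under each other scaling include miR-5099-z and miR-6134-z. Both reached the level through moderate hypoxia alone. The comparisons share the moderate hypoxia libraries, so the values stand side by side and are no second test of that group.

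The miR-3618 entries lie, in humans, with miR-1306 in the gene DGCR8, whose protein recognises miRNA hairpins for the first cut. The level of miR-3618-y was 4.74, 4.68 and 1.76 TPM in control, 0.719, 1.55 and 1.21 TPM under moderate hypoxia and 5.24, 13.9 and 7.06 TPM under acute hypoxia. The 3 groups did not overlap, with acute hypoxia highest. It was higher under acute than moderate hypoxia by 2.09 on the log2 scale (SE 0.38, adjusted p = 0.00316), in all 9 leave-outs and under all 3 other scalings (log2 change 1.81 to 1.95). The level of miR-3618-x was 11.8, 10.5 and 5.51 TPM in control, 4.58, 2.76 and 5.51 TPM under moderate hypoxia and 7.85, 11.8 and 10.8 TPM under acute hypoxia. Acute hypoxia lay above moderate hypoxia, by 1.10 on the log2 scale (SE 0.32, adjusted p = 0.0254), which did not hold without moderate hypoxia 2 or acute hypoxia 2 or 3 (adjusted p 0.0814 to 0.0952) and under 2 of 3 other scalings. Against control, moderate hypoxia gave log2 values of -1.07 for miR-3618-y (adjusted p = 0.0586) and -0.94 for miR-3618-x (adjusted p = 0.0511), and neither passed. The ratio of miR-3618-x to miR-3618-y was 2.49, 2.25 and 3.12 in control, 6.37, 1.78 and 4.55 in moderate hypoxia and 1.5, 0.855 and 1.53 in acute hypoxia. Acute hypoxia lay below both other groups (exact permutation p = 0.1 against each, adjusted p = 0.22). The third entry, miR-1306-x, lay between 0.342 and 2.70 TPM and passed in no comparison.

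The other members higher under acute than moderate hypoxia were miR-10544-z, miR-10965-z, miR-8163-y, miR-7132-x and miR-8160-x. The level of miR-10965-z was 1.64, 1.27 and 0.882 TPM in control, 1.17, 0.336 and 1.33 TPM under moderate hypoxia and 2.11, 3.32 and 3.42 TPM under acute hypoxia. Acute hypoxia lay above both other groups, by 1.04 on the log2 scale against moderate hypoxia (SE 0.28, adjusted p = 0.0196), which did not hold without moderate hypoxia 2 or acute hypoxia 2 or 3 (adjusted p 0.0707 to 0.0825). The log2 change was 1.19 for miR-10544-z (SE 0.35, adjusted p = 0.0284), lost without moderate hypoxia 1 or 2 or acute hypoxia 1 or 2 (adjusted p 0.0618 to 0.0952). It was 1.02 for miR-8163-y (SE 0.27, adjusted p = 0.0187), lost without moderate hypoxia 2 or acute hypoxia 2 or 3 (adjusted p 0.0505 to 0.0719). For miR-7132-x it was 0.86 (SE 0.22, adjusted p = 0.0159), lost without moderate hypoxia 2 or acute hypoxia 2 (adjusted p 0.0611 to 0.0632). For miR-8160-x it was 0.83 (SE 0.23, adjusted p = 0.0214), lost without moderate hypoxia 1 or 3 or acute hypoxia 2 or 3 (adjusted p 0.0630 to 0.0778). The calls of miR-7132-x and miR-8160-x passed under none of the 3 other scalings, that of miR-8163-y under 1, and those of miR-10965-z and miR-10544-z under 2.

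The members lower under acute than moderate hypoxia were miR-3966-z and miR-5099-z, both high in moderate hypoxia libraries 1 and 2. For miR-3966-z the change was -1.86 on the log2 scale (SE 0.50, adjusted p = 0.0187), or -0.48 with moderate hypoxia 3 alone in its group. The call was lost without moderate hypoxia 1 or 2 or any 1 of the acute hypoxia libraries (adjusted p 0.0521 to 0.0671). The change of miR-3968-z was -0.65 (SE 0.24, adjusted p = 0.0578) and did not pass, but it passed under all 3 other scalings (log2 change -1.01 to -0.85).

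Acute hypoxia compared with control gave no member past the threshold among 27, as in all 481 entries (0% called by limma, with 47 at an unadjusted p under 0.05). At an unadjusted p under 0.05 there were 5 members, miR-8159-x, miR-3618-y, miR-1788-y, miR-3968-z and miR-10965-z, with log2 values of 1.26, 1.02, 1.08, 0.59 and 0.80 and adjusted p of 0.331, 0.331, 0.489, 0.469 and 0.331. The groups did not overlap for 5 members (18.5%), all higher under acute hypoxia, against 11.2% of all entries (8.94% higher and 2.29% lower). The same comparison by limma-voom on whole reads gave 0 members.

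The remaining members passed in no comparison as fitted. They are miR-10545-x, at 3.96 to 25.2 TPM in the 9 libraries with control 1 highest, miR-10545-y at 2.76 to 4.85 TPM, miR-10544-y at 1.41 to 3.19 TPM, miR-1357-z at 0.538 to 2.63 TPM and miR-6134-z at 0.661 to 3.51 TPM. The let-7 seed entry miR-6134-z read 3.51, 2.22 and 1.27 TPM under moderate hypoxia, above every control and acute hypoxia library. It passed under all 3 other scalings in both comparisons with moderate hypoxia, which is no support, since it reached the level through that group alone.

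The authors' deposited table of moderate hypoxia with control lists 6 members as higher and 1 as lower, with false discovery rates below 0.05 from a test it does not name. The share of all entries under that rate was not computed for this or the authors' other comparisons, so these counts cannot be set against it. The higher ones in the authors' deposited table are the 5 described above and miR-6134-z, and the lower one is miR-10544-z. The authors' deposited table of acute with moderate hypoxia has 2 members higher, miR-3618-y and miR-10544-z, and 4 lower, miR-3966-z, miR-3968-z, miR-5099-z and miR-6134-z. In both comparisons miR-5099-z and miR-6134-z reached the level through moderate hypoxia alone, so their listing is no support. The authors' values come from the same libraries and are no second test. The authors' deposited table of acute hypoxia with control has none among the 26 members whose sequence it lists.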

How the data were processed

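Small-RNA libraries from trout liver, extracted with Trizol and made with standard Illumina protocols per the labels' protocols, were compared. The aligner, genome build and miRNA caller were not given in the sources used here. Every pair of groups has a table of its own among the 3 in the deposited file, whose abundance values are a signal scaled to library reads, named TPM per the file headers, with 0.01 in place of 0. Its log2 fold changes, p-values and false discovery rates are the authors' own, per the file headers. The tables with moderate hypoxia were joined by name over the 9 libraries.

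Reads were recovered from the smallest step between low values of each library (whole within 0.1 read). The 481 entries averaging 1 TPM or more entered, as log2(TPM + 1), 1 limma-trend fit (limma 3.58.1, R 4.3.3) of 3 group means. Each comparison was adjusted by Benjamini and Hochberg. Ratios were compared by exact permutation (scipy 1.17.1, Python 3.11.15), 33 tests adjusted together, and duplexes were computed with RNAduplex 2.7.2. The fit was tested on simulated data.

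The members and lists were chosen with earlier results of these data known. By rule, all members are named, and library values are given for the 12 past the threshold with the smallest adjusted p and the 10 most abundant. The library values of miR-1788-y and miR-5099-z were added after they were seen.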

Additional observations from a re-analysis of the deposited data

How the results depend on the processing

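Of the 19 log2 changes past the threshold, none changed sign under any setting in which it could be computed. The size of the changes depended on the pseudocount. With 0.1 in place of 1 the change of miR-10544-z against control was -2.43, and with 5 it was -0.55. Of the 19 changes, 3 moved by over 1.5 times with 0.1 and 12 with 5. With 5, 4 calls were lost, among them miR-1788-y against control and miR-10544-z between acute and moderate hypoxia. The changes of miR-5099-z are included in these numbers, but it reached the level through moderate hypoxia alone, so they are no test of it. The members past the threshold numbered 10 for moderate hypoxia against control, 9 for acute against moderate hypoxia and 0 for acute hypoxia against control, and the last was 0 under every setting, the authors' separate table of that pair (23 members tested) included. Without a filter the first 2 counts were 2 and 4, with 4.03% and 7.50% of all entries passing. With a mean of at least 10 TPM, which leaves 9 members, they were 4 and 2, with 38.5% and 42.6% of all entries passing. Median of ratios scaling gave 5 for acute against moderate hypoxia, with 25.6% of all entries passing. A fit of only the 2 groups compared gave 6 for moderate hypoxia against control, with 17.0% of all entries passing. A fit without moderate hypoxia 1 and 2 leaves 1 library in that group, which is assumed to vary like the others. Its counts are not given, and its median log2 changes over all entries were -0.24 and 0.35. Leaving out 1 library gave 3 to 10 calls for moderate hypoxia against control, with 6 without control 1, control 2, moderate hypoxia 3 or acute hypoxia 3, 4 without moderate hypoxia 1 and 3 without moderate hypoxia 2. It gave 1 to 12 for acute against moderate hypoxia, with 5 without moderate hypoxia 1, 2 without moderate hypoxia 2, 1 without acute hypoxia 2 and 3 without acute hypoxia 3. In these fits 12.7 to 26.8% of all entries passed for moderate hypoxia against control. For acute against moderate hypoxia that share was 15.2 to 38.7%. The cause of these shifts in the counts was not tested. Control 1 lay between the other 2 libraries of its group for 1 of 27 members, control 2 for 15 and control 3 for 11. For moderate hypoxia 1, 2 and 3 these numbers were 8, 5 and 14, and for acute hypoxia 1, 2 and 3 they were 8, 9 and 10.

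With a replicate block 9 and 8 members passed, with 24.3% and 29.1% of all entries passing, and 16 of the 19 calls were kept. Same-numbered libraries had correlations of their deviations from the group means of -0.206 to 0.264, and 2 of 9 libraries correlated best with a library of their own number, so the numbers were not taken as pairs. The planned count test was not run because the deposited values are a scaled signal and not counts, although whole reads were recovered from them. In its place, chosen after seeing the data, limma-voom on whole reads gave 7 and 7 members, with 18.295% and 22.037% of all entries passing. At the depth of these libraries 3 reads are up to 0.355 TPM, so that differences among the members near 1 TPM rest on few reads, and this covers counting error only.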

Other observations

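Below the level that set the members lie 47 names numbered 1000 and above with sequences of 20 nt or more. Of these, 19 had reads under moderate hypoxia and none in control or acute hypoxia, with as few as 1 read in all (miR-1379-z). The moderate hypoxia libraries held 11125143, 14878879 and 16515714 reads, against 8443329 to 11841128 in the others. The part of depth in this count was not tested, and the share over all scarce entries was not computed. With at least 3 reads in both libraries 1 and 2 and none in library 3 there were 4 of the 19. Among them was miR-1298-x, at 2.25, 1.41 and 0 TPM (25, 21 and 0 reads). With at least 3 reads in each moderate hypoxia library there was 1.
miR-5108-z: gGGTAGAGcactggatggat
The seed is in capitals. This entry, named in mouse, had 23, 23 and 45 reads in moderate hypoxia libraries 1, 2 and 3 (2.07, 1.55 and 2.72 TPM) and 0 in the other 6. With 3 reads over the control group as the floor it was at least 21.2-fold higher, and with 3 reads over the acute hypoxia group at least 20.7-fold higher. The third library thus held it at the highest level, unlike miR-1298-x, miR-3966-z and miR-5099-z. These names were picked after their values were seen.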
